A study of Mus musculus with 6 samples.

Results

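The genes described here are the mouse genes whose symbol is Zfp followed by a number and no letter, Zfp36 excepted, that are annotated as protein-coding and had at least 10 counts in at least 3 of the 6 libraries. Of 364 such symbols in the deposited table, 282 met the count rule and 82 did not, and 32 of those 82 had no count in any library. The RNA was sequenced in bulk from RAW264.7, a macrophage-like mouse line that arose from a tumour induced by Abelson leukaemia virus and is labelled wild type. MoS2 libraries (3) came from cells given molybdenum disulfide, a layered nanomaterial, at 6.25 µg/ml, and PBS libraries (3) came from cells given phosphate-buffered saline. The series title speaks of this material in relation to ferroptosis, an iron-dependent cell death, in the tumour microenvironment. Treatment length is not stated, and nothing in the labels tells separate cultures from repeat libraries of a culture. The p-values therefore cover the spread among these 6 libraries alone, and that spread may be technical. All of the cells are 1 line, and no second line or primary macrophage was compared.

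Zfp stands for zinc finger protein. Most proteins of this name carry fingers of the C2H2 kind, short loops that hold a zinc ion between 2 cysteines and 2 histidines, and arrays of such fingers read DNA bases. Many also carry a KRAB domain, a stretch near the amino end that binds Trim28, which brings the histone methyltransferase Setdb1, heterochromatin proteins and histone deacetylases to the bound DNA. KRAB zinc finger proteins are known above all for silencing retrotransposons and guarding imprinted loci, and their genes lie in clusters of recent duplicates. Members without KRAB have diverse roles, among them transcription activation, ribosome quality control and RNA binding. In mouse proteins derived from GENCODE M21, 172 of the 282 members matched a KRAB profile and 110 did not. The members had a median of 11 C2H2 fingers, 12 with KRAB and 7 without.

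The promoters of 4 members are printed because these genes were among those that rose or fell most at a mean of 2 CPM (counts on a common library size) or more, with sequence from RefSeq on build GRCm38.p6. Each stretch runs 5′ to 3′ on the gene's strand, from 250 bases before the start to 50 after it. Capitals mark matches, on either strand, to 2 general promoter elements, the CCAAT box (CCAAT) and the GC box (GGGCGG). Zfp811 and Zfp143 had the largest rises. Zfp764 and Zfp94 were among the 3 such members with the largest falls. The windows are chr17:32809882-32810181 on the minus strand for Zfp811, chr7:110061452-110061751 on the plus strand for Zfp143, chr7:127406773-127407072 on the minus strand for Zfp764 and chr7:24316617-24316916 on the minus strand for Zfp94.
Zfp811: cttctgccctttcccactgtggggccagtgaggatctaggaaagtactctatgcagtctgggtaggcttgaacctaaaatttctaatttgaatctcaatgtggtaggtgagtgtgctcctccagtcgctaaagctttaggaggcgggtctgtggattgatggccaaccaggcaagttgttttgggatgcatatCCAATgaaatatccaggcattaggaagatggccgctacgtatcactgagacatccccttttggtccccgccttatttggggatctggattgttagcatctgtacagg
Zfp143: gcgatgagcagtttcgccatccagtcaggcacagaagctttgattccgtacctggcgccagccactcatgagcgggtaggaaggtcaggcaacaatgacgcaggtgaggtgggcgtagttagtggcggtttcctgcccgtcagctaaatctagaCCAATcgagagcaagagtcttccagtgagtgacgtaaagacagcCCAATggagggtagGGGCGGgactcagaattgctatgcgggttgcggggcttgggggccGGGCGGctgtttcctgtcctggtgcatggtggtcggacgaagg
Zfp764: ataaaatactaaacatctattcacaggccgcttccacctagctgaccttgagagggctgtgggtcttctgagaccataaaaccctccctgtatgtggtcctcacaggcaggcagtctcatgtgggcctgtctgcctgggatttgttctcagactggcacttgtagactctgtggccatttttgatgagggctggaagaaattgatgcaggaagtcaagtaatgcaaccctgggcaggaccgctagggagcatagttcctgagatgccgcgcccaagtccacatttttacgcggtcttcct
Zfp94: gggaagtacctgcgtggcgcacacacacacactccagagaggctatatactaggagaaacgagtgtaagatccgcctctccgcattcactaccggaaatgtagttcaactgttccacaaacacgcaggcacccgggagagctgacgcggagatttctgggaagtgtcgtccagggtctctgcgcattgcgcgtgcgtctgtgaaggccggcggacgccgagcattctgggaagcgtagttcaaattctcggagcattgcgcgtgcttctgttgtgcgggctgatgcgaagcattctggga

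The Zfp811 window held 1 CCAAT box, the Zfp143 window held 2 CCAAT boxes and 2 GC boxes, and the other two windows held no match to either. A RefSeq promoter was found for 239 members. Of these, 49.0% held a GC box, against 69.2% of 8906 tested protein-coding genes with a promoter and 38.2% of all 27025 RefSeq genes with one. The share was 40.5% for members with KRAB and 64.0% for members without. A CCAAT box was found in 51.5% of members and 43.5% of tested protein-coding genes. The cAMP response element TGACGTCA was found in 4.18% of members and 3.81% of tested protein-coding genes. The motif of the human factor ZNF143, whose mouse counterpart Zfp143 is itself a member, was searched as well. It was found in 12 of 239 members (5.02%), against 3.0% of tested protein-coding genes. By call, 10 of 169 members that fell (5.92%) and 2 of the other 70 (2.86%) held it. The other elements went the other way. A GC box was held by 45.0% of members that fell and 58.6% of the others. For the CCAAT box these shares were 49.1% and 57.1%, and for the cAMP response element 3.55% and 5.71%. The differences by call were not tested. These shares describe letters in a window and say nothing of binding.

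Total counts lay between 15767618 and 18412762 in the MoS2 libraries and between 17008020 and 17695883 in the PBS libraries. Counts were scaled with the trimmed mean of M values (TMM), a method that sets the bulk of genes to no change, and are given as CPM. The factors were 0.743 to 0.783 in MoS2 and 1.305 to 1.310 in PBS libraries, so scaling by library totals moves the median of all genes by -0.77 on the log2 scale. Directions that this flips are named beside the genes. Macrophage markers summed to 5467 to 5732 CPM in MoS2 and 7325 to 7389 CPM in PBS libraries, and all 10 were detected, but under TMM 4 were higher, 4 lower and 2 not called, with a median log2 fold change of 0.05, and with library totals 3 were higher and 7 lower. The part of these differences in the results was not tested. Fibroblast, epithelial, T cell, B cell and endothelial markers each summed to under 1 CPM in every library, with 2 of 4 epithelial, 2 of 3 T cell and 2 of 3 B cell markers at 0 throughout. In bulk RNA, fewer cells of a type and less RNA per cell cannot be told apart.

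Most of the Zfp members were lower in MoS2 cells. By edgeR's quasi-likelihood test with adjusted p under 0.05, 198 members were lower and 31 higher, and 53 were not called. Over all 12972 genes tested, 42.4% were lower and 38.3% higher, 80.7% in all, and over protein-coding genes 44.2% were lower and 37.3% higher. The median log2 fold change was -1.18 for the members and -0.08 for all genes. A fall of at least 2-fold was called for 154 members and a rise of that size for 8, against 23.7% and 19.5% of all genes. Every MoS2 library lay below every PBS library in 202 members and above in 32, against 43.1% and 38.8% of all genes. With library totals in place of TMM, 256 members were lower and 7 higher, with a median of -1.95, against 67.7% lower and 18.0% higher over all genes. With each library's trend on gene length removed, 189 were lower and 49 higher, against 38.4% and 41.4% of all genes.

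**Figure D1:**
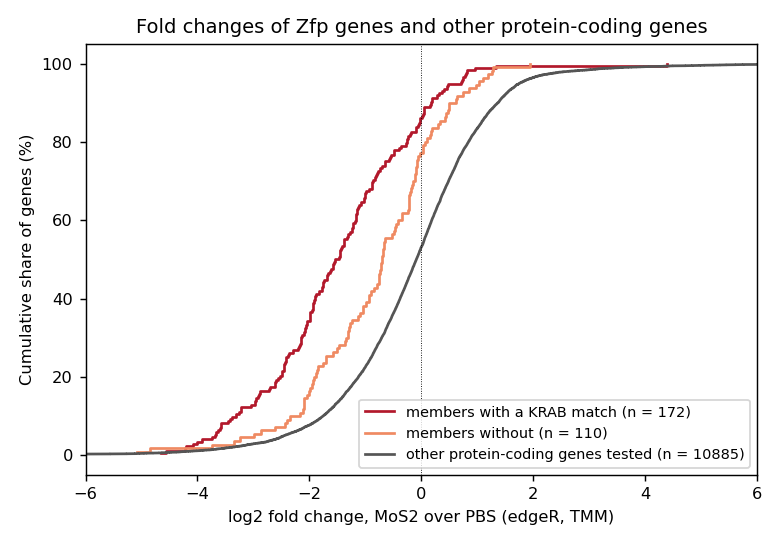
Cumulative share of genes (percent, vertical axis) by log2 fold change of MoS2 over PBS (horizontal axis) for 172 members with a KRAB match, 110 members without and 10885 other tested protein-coding genes. The curve of KRAB members lies furthest to the left, with a median of -1.50, and that of the others is centred near 0 with a median of -0.09.

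In raw reads, the members held 0.290%, 0.297% and 0.271% of the counts of the MoS2 libraries, against 0.647%, 0.677% and 0.693% in the PBS libraries. The groups did not overlap. A share of counts is scaled by library totals, which lowers the median of all genes as well. The members' summed TMM-scaled level was 3740 ± 74.6 CPM in MoS2 and 5151 ± 168 CPM in PBS libraries, a ratio of 0.726. The median member stood at 4.22 ± 0.233 CPM in MoS2 and 9.61 ± 0.206 CPM in PBS libraries (SD, n = 3 each). The count rule works in 1 direction here and so shapes the counts above. Of the members, 66 had under 10 counts in at least 1 MoS2 library and 10 or more in all PBS libraries, and 40 of these reached 10 in no MoS2 library. The reverse held for 1 member at the first limit and 0 at the second. A gene that entered through the PBS libraries alone had to be low in MoS2, so the counts describe the genes that passed and no more.

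The members just inside the rule were Zfp493, Zfp459 and Zfp541. Zfp493 had 1 count over the MoS2 libraries and 41 over the PBS libraries. For Zfp459 these sums were 9 and 38, and for Zfp541 they were 3 and 54. Just outside it were Zfp991, with 5, 5 and 7 counts in MoS2 and 9, 5 and 13 in PBS, and Zfp532, with 6, 8 and 12 in MoS2 and 9, 3 and 5 in PBS. Zfp365 followed with 0, 2 and 4 counts in MoS2 and 15, 9 and 11 in PBS. Zfp532 was the one of these 6 with more counts in the MoS2 group.

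Over all levels together, members with a KRAB domain had the larger median fall. Of 172, 131 were lower and 14 higher, with a median log2 fold change of -1.50. Of the 110 without KRAB, 67 were lower and 17 higher, with a median of -0.70. The shares over all genes were 42.4% lower and 38.3% higher. Summed over members, KRAB genes stood at 954 ± 16.9 CPM in MoS2 and 1682 ± 73.4 CPM in PBS libraries, a ratio of 0.567. The members without KRAB stood at 2787 ± 61.4 CPM in MoS2 and 3469 ± 94.6 CPM in PBS libraries, a ratio of 0.803 (SD, n = 3 each). With library totals, 159 KRAB members were lower and 2 higher, and 97 members without KRAB were lower and 5 higher. All genes then had 67.7% lower and 18.0% higher.

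KRAB members were also the less abundant ones, with a median level of 1.0 CPM per kilobase of gene length (RPKM) against 3.41 RPKM for those without. The medians split by mean CPM over all 6 libraries are given as a description alone. The lowest bin holds members that met the count rule through the PBS libraries only, which ties a low level to a fall. Under 5 CPM, 88 KRAB members had a median log2 fold change of -1.99, 18 without KRAB had -1.01 and 1727 other protein-coding genes had -0.85. Between 5 and 20 CPM, 72 KRAB members had -1.17, 37 without KRAB had -1.25 and 2319 other genes had -0.49. At 20 CPM or more, the medians were -0.23 for 12 KRAB members, -0.20 for 55 without and 0.14 for 6839 other genes. Members of both kinds had medians below those of other protein-coding genes in each bin. KRAB members had the clearly lower median only under 5 CPM, in the bin that the count rule shapes.

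**Figure D2:**
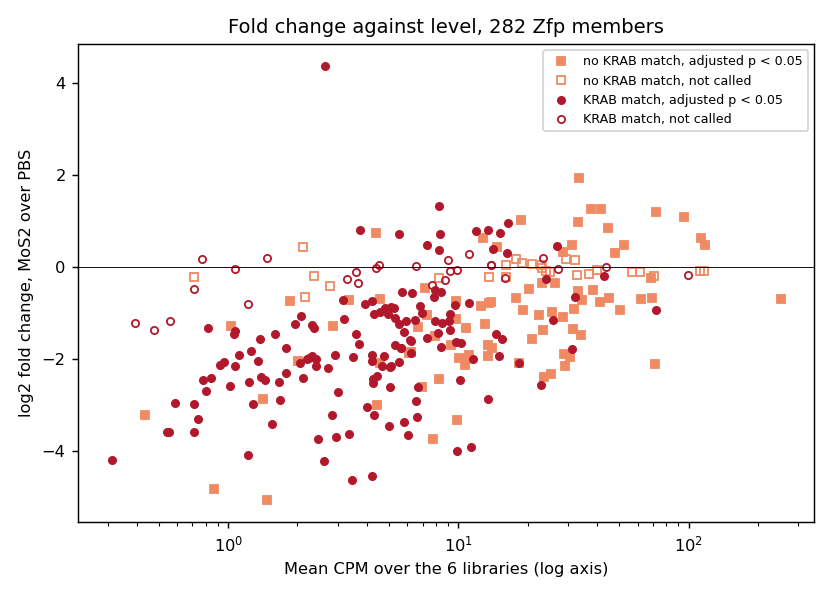
Log2 fold change of MoS2 over PBS (vertical axis) against the mean CPM over the 6 libraries (horizontal log axis) for the 282 members. Circles are members with a KRAB match and squares those without, filled where adjusted p was under 0.05. Falls beyond -3 lie at the left and centre, and the members above 20 CPM sit around -0.20.

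By number of fingers the medians differed too, over members that met the same count rule. The 38 members with 0 to 4 fingers had a median log2 fold change of -0.41, with 20 lower and 8 higher. The 80 with 5 to 9 fingers had -0.99, with 56 lower and 8 higher. The 104 with 10 to 14 had -1.31, with 74 lower and 11 higher, and the 60 with 15 or more had -1.76, with 48 lower and 4 higher. All genes had 42.4% lower and 38.3% higher. Median levels in the same order were 3.71, 2.39, 1.04 and 1.22 RPKM, so the members with 10 or more fingers also had the lower levels. Across members Pearson's r with the log2 fold change was 0.51 for level (log2 RPKM), 0.22 for exon number and -0.22 for finger number (n = 282). It was -0.13 for transcript length, -0.10 for the length of the 3′ untranslated region and 0.05 for GC content. Across the other protein-coding genes level had 0.39, transcript length -0.26 and exon number -0.07.

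Zfp87, at chr13:67515781-67526177, is a KRAB gene with 15 fingers. It had 0.240, 0.0811 and 0.439 CPM in MoS2 libraries, against 6.24, 6.64 and 7.05 CPM in PBS libraries. These rest on 10 and 454 counts, and the groups lay far apart. The log2 fold change was -4.64 ± 0.34 (SE; edgeR adjusted p = 1.6e-08), or -5.31 without MoS2 replicate 3, and 10.4% of its exon bases lie in exons of the annotated gene Gm26965. Zfp764, at chr7:127403668-127406822, has KRAB and 9 fingers, and its promoter is shown above. It had 0.160, 0.405 and 0.439 CPM in MoS2, against 8.85, 8.25 and 7.23 CPM in PBS libraries, with 13 and 555 counts. Each MoS2 value lay far below each PBS value. The log2 fold change was -4.56 ± 0.29 (edgeR adjusted p = 4.4e-09), and 13.6% of its 75-base words also occur in transcripts of other genes. Zfp94, also shown above, fell to 0.319, 0.162 and 0.293 CPM in MoS2, against 4.77, 4.95 and 5.21 CPM in PBS libraries. On the log2 scale it fell by 4.23 ± 0.32 (p adjusted by edgeR = 2.8e-08).

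Zfp316 and Zfp12 are neighbours on chromosome 5, at 143249697-143270022 on the minus strand and 143235163-143248834 on the plus strand, and each encodes KRAB and 15 fingers. Zfp316 had 1.44, 1.05 and 0.951 CPM in MoS2, against 17.4, 18.6 and 19.7 CPM in PBS libraries. Zfp12 had 1.36, 1.30 and 1.54 CPM in MoS2, against 19.7, 21.3 and 22.7 CPM in PBS libraries. Both fell in every MoS2 library, by 4.01 ± 0.18 and 3.92 ± 0.16 on the log2 scale (edgeR adjusted p = 1.3e-10 and 6.0e-11). With 1268 and 1450 counts over the PBS libraries they were the best counted of the 8 largest falls. Their exons do not overlap.

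Zfp41, which had no KRAB match and 4 fingers in its longest annotated protein, had 1.68, 0.892 and 0.658 CPM in MoS2, against 13.1, 15.8 and 14.3 CPM in PBS libraries. Its log2 fold change was -3.75 ± 0.23. Zfp40 had 0.399, 0.162 and 0.439 CPM in MoS2, against 4.90, 3.91 and 4.94 CPM in PBS libraries, and Zfp953 had 0.319, 0.567 and 0.366 CPM in MoS2, against 4.90, 5.78 and 5.71 CPM in PBS libraries. Both are KRAB genes, with log2 fold changes of -3.74 ± 0.34 and -3.69 ± 0.30. The 8 members with the largest falls were picked among called members at a mean of 2 CPM or more whose groups did not overlap. Of these 8, 7 have KRAB, against 172 of all 282 members. Zfp87, Zfp764, Zfp94, Zfp40 and Zfp953 had under 10 counts in each MoS2 library, so they met the count rule through PBS libraries alone.

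**Figure D3:**
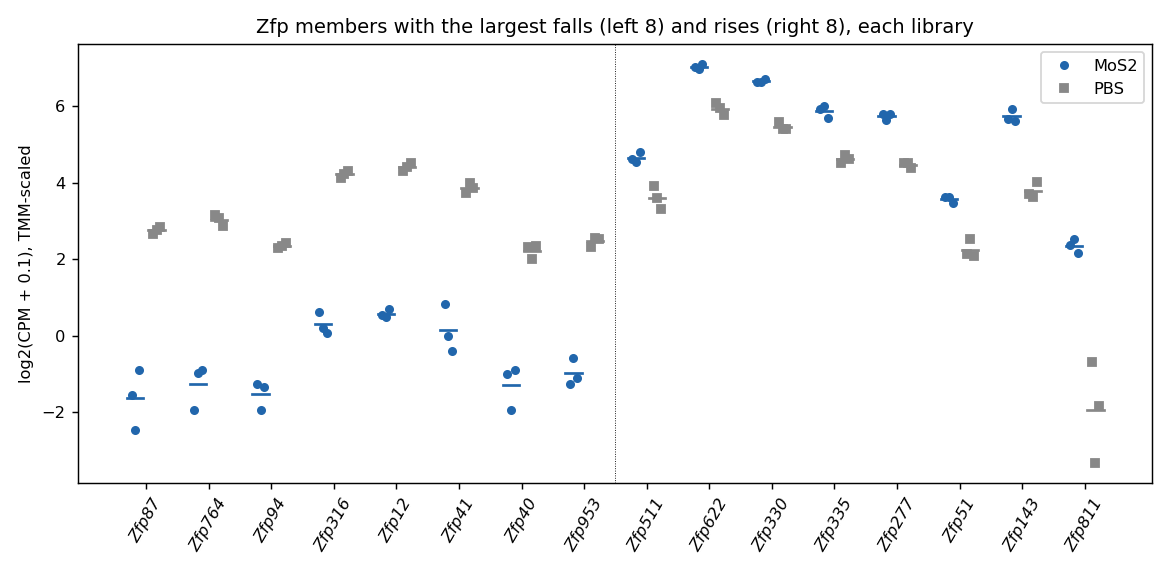
TMM-scaled CPM, as log2(CPM + 0.1) on the vertical axis, in each MoS2 (circles) and PBS (squares) library for the 8 members with the largest falls and the 8 with the largest rises at a mean of 2 CPM or more. Short lines are group means, and all 16 genes were picked among called members whose groups do not overlap. Zfp811 is the one with a PBS library at 0.

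Of the members, 6 had at most 3 counts over all MoS2 libraries, too few for a fitted fold change to mean much. Zfp213, named after its values were seen, had 3 counts in MoS2 and 196 in PBS libraries, a ratio of 0.0272 after scaling with a 95% counting interval of 0.00555 to 0.0805. All 3 counts came from MoS2 replicate 1. Zfp541 had a ratio of 0.0986 (0.0197 to 0.304) and Zfp493 a ratio of 0.0433 (0.00107 to 0.255). Without MoS2 replicate 1 their fitted log2 fold changes moved to -4.14 (Zfp541) and -6.51 (Zfp493) from 1 and 0 MoS2 counts. These intervals cover counting error only. Zfp459 had a log2 fold change of -1.23 ± 0.69 and was not called (edgeR adjusted p = 0.117).

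Zfp811, a KRAB gene with 13 fingers at chr17:32795676-32809931, had the largest rise. It had 63, 70 and 60 counts in MoS2 libraries, against 12, 0 and 4 in PBS libraries, or 5.03, 5.67 and 4.39 CPM against 0.520, 0 and 0.180 CPM. The gene was nearly silent in PBS libraries. The log2 fold change was 4.38 ± 0.50 (edgeR adjusted p = 1.8e-06), 5.71 without PBS replicate 1, 3.80 without PBS replicate 2, and 3.62 with library totals. None of its 75-base words occur in other genes and no exon overlaps one.

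Zfp143, at chr7:110061217-110095394, encodes a 7-finger activator of small nuclear RNA, selenocysteine tRNA and many mRNA promoters. It had 50.7, 60.1 and 48.3 CPM in MoS2, against 12.9, 12.3 and 16.1 CPM in PBS libraries. Every MoS2 library was more than 2-fold above every PBS library. The log2 fold change was 1.94 ± 0.12 (edgeR adjusted p = 2.2e-09), or 1.17 with library totals. Zfp51, a KRAB gene with 19 fingers, rose to 12.3, 12.3 and 11 CPM in MoS2, against 4.29, 5.65 and 4.13 CPM in PBS libraries, with a log2 fold change of 1.34 ± 0.16, or 0.56 with library totals.

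The other large rises were members without KRAB. Zfp277, reported to bring Polycomb proteins to the Cdkn2a locus in mouse fibroblasts, had 54.8, 49.9 and 55.2 CPM in MoS2, against 22.5, 22.8 and 20.8 CPM in PBS libraries (log2 fold change 1.27 ± 0.08). Zfp335, needed for T cell maturation and neuron production, had 61.0, 63.5 and 51.1 CPM in MoS2, against 22.9, 26.1 and 24.3 CPM in PBS libraries (1.26 ± 0.09). Of its exon bases, 28.3% lie in exons of Pcif1. Zfp330, counterpart of a human nucleolar autoantigen and without a C2H2 match, had 99.4, 98.3 and 105 CPM in MoS2, against 47.8, 42.3 and 41.8 CPM in PBS libraries (1.20 ± 0.07). Zfp622, a factor of large ribosomal subunit maturation, had 129, 124 and 137 CPM in MoS2, against 67.5, 61.2 and 53.8 CPM in PBS libraries (1.09 ± 0.08). These 4 stayed called with library totals, at 0.50, 0.49, 0.42 and 0.32. Zfp511 had 24.4, 23.3 and 27.6 CPM in MoS2, against 15, 12 and 9.80 CPM in PBS libraries, a log2 fold change of 1.03 ± 0.14 that was 0.25 and not called with library totals (edgeR adjusted p = 0.103). Of the 31 members higher under TMM, 7 were also higher with library totals (Zfp811, Zfp143, Zfp51, Zfp277, Zfp335, Zfp330 and Zfp622), 17 changed sign and 10 of those were called lower.

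Per kilobase, the most abundant of the 5 members with the highest CPM were Zfp598 at 35.2 RPKM in MoS2 and 25.1 RPKM in PBS libraries, Zfp346 at 32.8 and 21.2 RPKM in the same order, and Zfp106 at 18.5 and 29.8 RPKM. Zfp598 is the ubiquitin ligase that marks collided ribosomes. It had 136, 137 and 138 CPM in MoS2, against 90.1, 105 and 98.3 CPM in PBS libraries, and rose by 0.49 ± 0.07 on the log2 scale (p adjusted by edgeR = 1.5e-05), but had -0.28 with library totals. Zfp346 binds double-stranded RNA, and had 142, 139 and 130 CPM in MoS2, against 88.9, 86.9 and 90.1 CPM in PBS libraries. Its log2 fold change was 0.63 ± 0.06, or -0.15 and not called with library totals. Zfp106, an RNA-binding protein needed by motor neurons, fell to 186, 209 and 182 CPM in MoS2, against 282, 314 and 337 CPM in PBS libraries, with a log2 fold change of -0.69 ± 0.08.

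Zfp91, a ubiquitin ligase of the non-canonical NF-kB pathway, averaged 113 ± 5.06 CPM in MoS2 and 119 ± 5.62 CPM in PBS libraries (SD, n = 3 each). As 25.8% of its exon bases lie in exons of another annotated gene, its values are uncertain. Zfp207, which loads the checkpoint protein Bub3 on chromosomes, averaged 109 ± 7.72 CPM in MoS2 and 115 ± 4.09 CPM in PBS libraries. Their groups overlapped and neither was called under TMM, at -0.08 ± 0.07 on the log2 scale for each (p adjusted by edgeR = 0.287 for Zfp91 and 0.279 for Zfp207). With library totals both were called lower, at -0.85 and -0.86, and with the length trend removed both were above 0, at 0.25 and 0.21.

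Grouped by role, members known for silencing retroelements or imprinted loci split by scaling. Of 7 listed, 4 had enough counts. Under TMM 1 of these was lower, 0 were higher and 3 were not called, against 42.4% lower and 38.3% higher over all genes. With library totals all 4 were lower, against 67.7% of all genes. Zfp445, a guard of imprints, fell to 49.2 ± 1.87 CPM in MoS2, against 94.6 ± 6.72 CPM in PBS libraries (log2 fold change -0.94 ± 0.07, edgeR adjusted p = 4.1e-08). Zfp809, which silences murine leukaemia proviruses, averaged 25 ± 2.13 CPM in MoS2 and 21.8 ± 2.08 CPM in PBS libraries and was not called (0.19 ± 0.10, edgeR adjusted p = 0.10), but was lower with library totals at -0.58. Zfp932, which binds endogenous retroviruses, averaged 6.62 ± 1.54 CPM in MoS2 and 8.74 ± 1.03 CPM in PBS libraries (edgeR adjusted p = 0.0534), but was lower with library totals at -1.17, and 32.6% of its 75-base words occur elsewhere. Zfp568, which silences a placental promoter of Igf2, had a log2 fold change of 0.05 ± 0.14, and was lower with library totals at -0.72. Zfp57 and Zfp42 had 0 counts in every library, and Zfp708 had 1 count in all.

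Of 9 members that act on RNA, translation or ribosomes, 4 were higher (Zfp622, Zfp346, Zfp598, Zfp326) and 3 lower (Zfp638, Zfp106, Zfp830) under TMM. These shares lie near those of all genes, of which 38.3% were higher and 42.4% lower. With library totals 1 was higher and 6 lower, against 18.0% and 67.7% of all genes. Zfp326 was then among the lower, at -0.30. Zfp638, a nuclear RNA- and DNA-binding protein linked to silencing of unintegrated retroviral DNA, fell to 34.7 ± 3.59 CPM in MoS2, against 66.1 ± 4.72 CPM in PBS libraries (log2 fold change -0.93 ± 0.09). Of 14 promoter factors and chromatin proteins, 8 were lower and Zfp143 was the 1 higher, against 42.4% and 38.3% of all genes, and with library totals 13 were lower and 1 higher, against 67.7% and 18.0%. Zfp687, of a chromatin complex with Zmynd8, fell to 7.59, 9.89 and 7.61 CPM in MoS2, against 41.7, 42.6 and 42.5 CPM in PBS libraries (-2.34 ± 0.11, edgeR adjusted p = 2.0e-10). Zfp217, a partner of the Lsd1 and CoREST corepressors, fell to 10.2, 12.7 and 9.07 CPM in MoS2, against 44.5, 45.5 and 52.9 CPM in PBS libraries (-2.16 ± 0.12). In both genes the MoS2 libraries lay far below the PBS libraries. The other lower members of the list, Zfp668, Zfp644, Zfp462, Zfp219, Zfp384 and Zfp281, had log2 fold changes of -1.71 to -0.35.

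Of 3 members with roles in immune cells, Zfp335 was higher, Zfp91 was not called and Zfp318 was lower. Zfp318, which lets B cells make IgD by alternative transcript processing, averaged 12.3 ± 2.13 CPM in MoS2 and 45.3 ± 3.12 CPM in PBS libraries (log2 fold change -1.89 ± 0.12, edgeR adjusted p = 3.0e-09). Of 4 members of adipocyte and mesenchymal differentiation, 3 were lower and 1 higher. Beside 42.4% lower and 38.3% higher over all genes, lists of 3 or 4 members say little about a role. Zfp467, which favours adipocytes over osteoblasts, averaged 2.56 ± 0.969 CPM in MoS2 and 13.9 ± 0.779 CPM in PBS libraries (-2.44 ± 0.20). Zfp503, a developmental repressor, averaged 3.99 ± 0.786 CPM in MoS2 and 17.4 ± 0.207 CPM in PBS libraries (-2.12 ± 0.15). Zfp516, an activator of the brown fat programme, was higher at 57.3 ± 2.59 CPM in MoS2 and 31.7 ± 4.90 CPM in PBS libraries (0.85 ± 0.10), but had 0.08 with library totals and was not called (edgeR adjusted p = 0.483).

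Zfp genes that lie within 200000 bases of the next formed 7 clusters of at least 6 members. These held 79 members, of which 63 were lower and 5 higher. Of all 282 members 198 were lower and 31 higher, and of all genes 42.4% were lower and 38.3% higher. Whether clustered members differed from the rest was not tested. The cluster at chr13:67038596-67827002 held 16 members, all with KRAB. There 15 were lower and 0 higher, with a median log2 fold change of -2.47 and a range of -4.64 (Zfp87) to -1.08 (Zfp429). The cluster's median level was 1.67 CPM, and all members under 5 CPM had a median log2 fold change of -1.97, with 80.2% lower. Some, such as Zfp87 and Zfp759, met the count rule only through the PBS libraries and so had to be low in MoS2. Zfp58 shares 49.6% of its 75-base words with other genes and Zfp456 59.2% of its exon bases, so their values are uncertain. Zfp953 lies here too, and so do Zfp493 and Zfp459 from the edge of the count rule.

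The cluster at chr17:21383748-22456689 also held 16 KRAB members and was divided by position. In gene order Zfp51, Zfp53, Zfp52 and Zfp948 are consecutive members, and all 4 were higher, with log2 fold changes of 1.34 ± 0.16, 0.47 ± 0.14, 0.40 ± 0.12 and 0.78 ± 0.12. The other 12, on both sides of this block, were lower, down to -3.22 (Zfp943). The block was noticed after the values were seen. With library totals Zfp51 stayed higher at 0.56, Zfp948 had 0.00, Zfp53 had -0.30 and Zfp52 was lower at -0.37, so 3 of the 4 were then not higher. Under 1% of the 75-base words of each of the 4 occur in other genes.

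Zfp811 belongs to a cluster of 8 KRAB members at chr17:32765496-33110705. In gene order it stands between Zfp871, at 93.3 ± 14.3 CPM in MoS2 and 106 ± 13.6 CPM in PBS libraries, and Zfp799, at 2.56 ± 0.497 CPM in MoS2 and 8.74 ± 0.759 CPM in PBS libraries (SD, n = 3 each). Zfp871 was not called (log2 fold change -0.18 ± 0.11), nor was Zfp870 (-0.02 ± 0.19), and the remaining 5 members were lower. In the 3 clusters on chromosome 7, with 10, 14 and 8 members, 7, 11 and 7 were lower and 0 higher, and in the 1 on chromosome 6, 6 of 7 were lower and 0 higher. Chromosome 7 held 76 members, 58 of them lower and 4 higher. Beside these counts stand 198 lower and 31 higher of all 282 members, and 42.4% lower and 38.3% higher of all genes. Differences of these clusters or of chromosome 7 from all members were not tested.

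**Figure D4:**
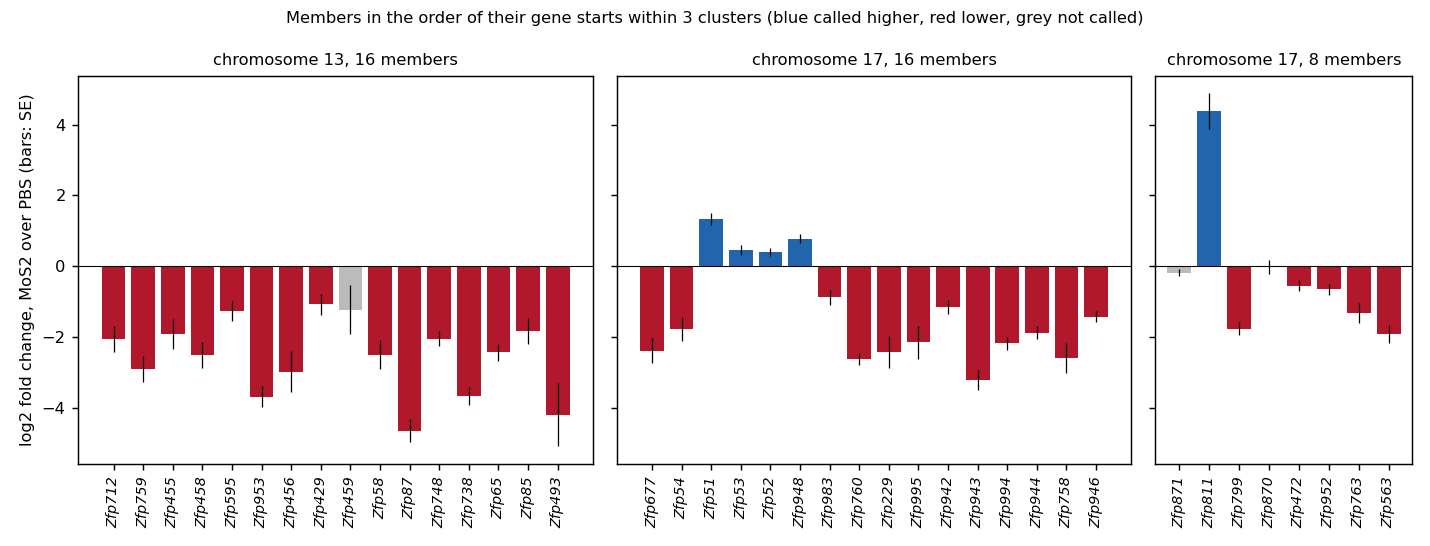
Log2 fold change of MoS2 over PBS with its SE (vertical axis) for the members of 3 clusters, in the order of their gene starts. In the chromosome 13 cluster 15 of 16 members were lower, in the first chromosome 17 cluster 4 consecutive members were higher under TMM and 12 lower, and in the second Zfp811 stands at 4.38 among members at or below 0.

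Under TMM, most genes through which KRAB proteins act were lower too, a majority that ended with the length trend removed. Of 30 listed partners, 19 were lower and 5 higher, against 42.4% and 38.3% of all genes, with a median log2 fold change of -0.45, against -0.08 for all genes. The partners had a median of 63.3 CPM, and the 12 KRAB members at 20 CPM or more had a median log2 fold change of -0.23. Trim28, the corepressor that binds KRAB, averaged 159 ± 5.98 CPM in MoS2 and 257 ± 20.4 CPM in PBS libraries (-0.70 ± 0.07, edgeR adjusted p = 5.2e-07). Setdb1 averaged 46.8 ± 2.34 CPM in MoS2 and 81.4 ± 1.66 CPM in PBS libraries (-0.80 ± 0.07, edgeR adjusted p = 1.1e-07). Morc2a, a chromatin compactor that works with the HUSH silencing complex, averaged 19.6 ± 2.42 CPM in MoS2 and 70.6 ± 2.16 CPM in PBS libraries (-1.85 ± 0.09). The HUSH subunit Fam208a averaged 9.48 ± 0.576 CPM in MoS2 and 29.8 ± 2.33 CPM in PBS libraries (-1.65 ± 0.11). The heterochromatin protein Cbx5 fell to 61.9 ± 2.17 CPM in MoS2, against 170 ± 18.8 CPM in PBS libraries, and the DNA methyltransferase Dnmt3a to 85.7 ± 2.04 CPM, against 202 ± 12.7 CPM. Mta1, Hdac2, Cbx1, Daxx and Mbd3 were higher under TMM. With library totals, 29 partners were lower and 0 higher, against 67.7% and 18.0% of all genes, and Mta1 alone was not called. With the length trend removed, 14 were lower and 9 higher, with a median of -0.13, against 38.4% and 41.4% of all genes.

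**Figure D5:**
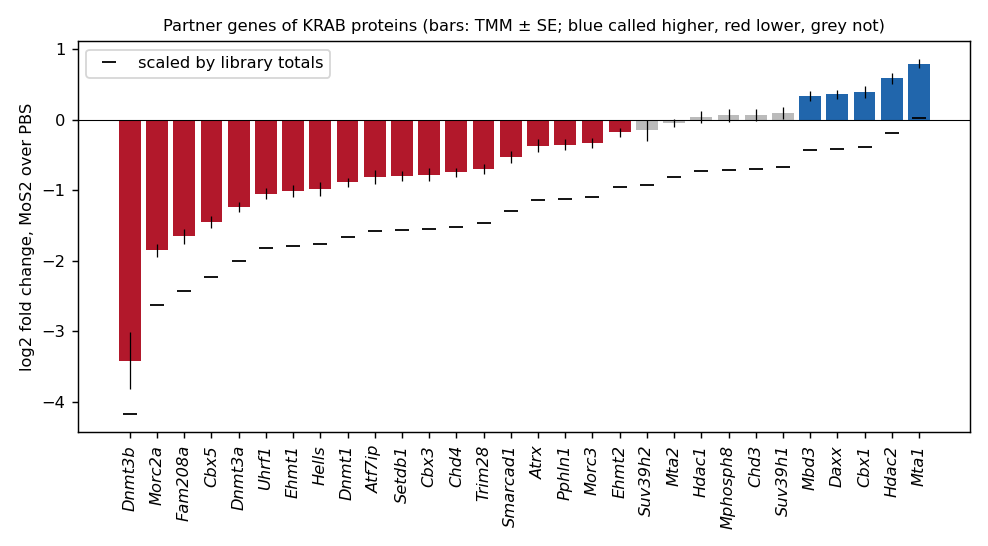
Log2 fold change of MoS2 over PBS (vertical axis) for 30 genes of the KRAB silencing pathway, as bars with SE under TMM scaling and as dashes under scaling by library totals. Bars run from Dnmt3b at -3.42 to Mta1 at 0.79, and with library totals every gene but Mta1 lies below 0.

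Zinc finger genes of other names had medians below 0 too. Among KRAB genes with at least 3 fingers that are not named Zfp, 45 of 53 tested were lower and 0 higher, with a median log2 fold change of -1.39. Their median level was low, at 2.86 CPM. Protein-coding genes other than members had a median log2 fold change of -0.85 under 5 CPM, with 51.4% lower. Among genes with at least 3 fingers, no KRAB and another name, 77 of 128 were lower and 32 higher, with a median of -0.70, and 105 were lower and 10 higher with library totals. Over all genes 42.4% were lower and 38.3% higher, or 67.7% and 18.0% with library totals. Zscan and Zkscan genes, whose proteins pair a SCAN domain with fingers, had 15 of 18 lower and 1 higher, with a median of -1.32. Zbtb genes, whose proteins pair a BTB domain with fingers, had 22 of 36 lower and 8 higher, with a median of -0.78. Members with and without KRAB had medians of -1.50 and -0.70, and these differences were not tested.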

How the data were processed

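The authors deposited raw read counts for 55401 genes in 1 table. Libraries were NEBNext Ultra from TRIzol RNA, read as paired ends, per the labels' protocols. The submitters' processing notes list featureCounts 1.6.1, HISAT2 2.1.0 and fastp 0.20.0, and name the build GRCh38, although the identifiers and coordinates are those of mouse GRCm38. Neither the strand setting nor the treatment of multi-mapping reads was known here. Symbols came from GENCODE M21 for 55141 identifiers. Of the members, 278 match it with the same version and 4 by identifier alone.

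The members and lists were chosen with earlier results of these data known. Therefore counts and medians over members are descriptions, without a test. The fit was edgeR 4.0.16 in R 4.3.3, with its default filter on low counts, TMM factors, a quasi-likelihood F test on group alone over all 6 libraries, and Benjamini-Hochberg adjustment over 12972 genes. It was tested on simulated counts in which few genes changed, as many up as down. That setting differs from these data and cannot test the choice of scaling. The SE is the fold change divided by the square root of F, and is too small for genes with few counts. RPKM is TMM-scaled CPM per kilobase of deposited gene length.

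KRAB was called with a profile of width 40 built from 116 M21 proteins at an E-value of at most 0.001 in any coding isoform. Fingers were counted by a C2H2 pattern in the longest isoform. Of the members, 31 share over 10% of their 75-base words with other genes' transcripts and 28 over 10% of exon bases, 50 in all, and their values are uncertain. Without these 50, 164 were lower and 27 higher.

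The text names, among called members at a mean of 2 CPM or more without overlap of groups, the 8 that rose most and the 8 that fell most, the 5 members of highest CPM, up to 3 members of each role list and 4 partner genes by adjusted p, Trim28 and Setdb1, and the genes next to the count rule. Others were named after their values were seen. Replicates of a group differed by more than sampling noise (chi-square per degree of freedom 3.03 to 13.5), so none was treated as a repeat deposit of another. This does not show separate cultures. Alternatives were other scalings, filters, tools, a length correction, a replicate block and leaving out each library.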

Additional observations from a re-analysis of the deposited data

How the results depend on the processing

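Most falls of members held under the alternatives run, and most rises ended with library totals. Of 198 members called lower, 184 stayed lower in each of 17 alternatives in which they were tested. With library totals 0 of them changed sign, but that setting shifts the median of all genes by -0.77, so a fall could hardly turn. Of 31 called higher, 7 stayed higher in all and 26 in all but library totals, where the same shift works against rises. The share of all called genes that kept their call was not computed. Under TMM 4964 of all genes were higher and 5502 lower. Scaling by library totals gave 2334 genes higher and 8786 lower, 7 members higher, 0 KRAB partners higher and 29 lower, 5 Zbtb and 0 Zscan or Zkscan genes higher, and a members' median of -1.95. Removing the length trend gave 49 members, 9 partners and 13 Zbtb genes higher, 14 partners lower and a members' median of -1.01. The median was -1.31 with upper-quartile factors and -1.26 with no filter on low counts. Among the 40 genes named by rule, signs turned with library totals for Zfp346 (-0.15), Zfp598 (-0.28) and Zfp809 (-0.58). With the length trend removed they turned for Zfp207 (0.21) and Zfp91 (0.25). The cause was not tested. Of 677 values of 40 named genes under alternatives, 653 kept direction and call. DESeq2 gave 194 members lower and 31 higher, and limma-voom 201 and 31.

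Without 1 library at a time, 195 to 199 members were lower and 29 to 32 higher, and over all genes 5334 to 5564 were lower and 4843 to 5070 higher. The call was lost without some library for 13 of 229 called members. The fold moved by over 1.5 times for 16, all of them low genes such as Zfp811 and Zfp493. With the replicate block, 197 members were lower and 31 higher. Same-numbered libraries did not deviate together (correlations -0.02, -0.01 and -0.14), so no pairing by number was seen. With 3 libraries per group a weak pairing could go unseen. Chosen after seeing the data, identifiers of the same version alone gave 197 lower and 31 higher, and members without shared sequence or exon overlap 164 and 27. Depth limits the members under 10 counts in MoS2 libraries, where a fold change rests on few reads.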
